A study of Mus musculus with 4 samples.

Results

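The genes described here are 8 transcription factors of the myeloid lineages, chosen by name: Spi1, Cebpa, Cebpb, Cebpd, Cebpe, Gfi1, Irf8 and Klf4. They are 8 of the 55401 genes in the deposited tables, and their expression was compared between obese mice (Ob, labelled HFD) and obese mice that had exercised (Ob + Exe, labelled HFD and Exercise). All mice were wild-type C57/B6 males, 8 weeks old at the start and made obese on a high-fat diet (HFD), which both groups received. The Ob + Exe mice also ran on a treadmill at moderate intensity for 12 weeks. RNA was taken from tibial bone marrow, and each group has 2 libraries, with no lean group analysed here. The labels do not say whether the 2 libraries of a group came from separate mice, so the p-values measure only the spread between these libraries.

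The labels give the tissue as bone marrow, but they also give a cell line (mesenchymal stem cells) and a cell type (fibroblast). Blood cell transcripts dominated all 4 libraries: FPKM (fragments per transcript, divided by its length and by the depth of the library), scaled between libraries, was 12006 to 35688 for the neutrophil gene S100a8 and 17631 to 43309 for the globin gene Hbb-bs. The collagen genes Col1a1 and Col1a2, listed here with the stromal, fat and bone cell genes, were at 1.18 to 3.13 and 5.02 to 7.28. The libraries had 8702 to 9952 megabases of aligned sequence. Because whole marrow was sequenced, fewer cells of a type and less RNA per cell cannot be told apart.

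Blood cells of the marrow arise from progenitors whose lineage is set by combinations of transcription factors. PU.1, the ETS factor encoded by Spi1, is needed for granulocytes, monocytes and lymphoid cells, and C/EBPα, encoded by Cebpa, moves progenitors into the granulocyte and monocyte branch. Within that branch C/EBPε and the repressor Gfi1 drive neutrophil maturation, while IRF8 and KLF4 drive monocytes, and IRF8 also dendritic cells. C/EBPβ and C/EBPδ are induced by cytokines and act in stress granulopoiesis, in macrophages and in fat cell differentiation.

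Start regions are shown for 3 members on which the results turn: Klf4, which had the lowest p, and Gfi1 and Irf8. Gfi1 and Irf8 were both highest in Ob + Exe replicate 1 and lowest in Ob + Exe replicate 2, while their Ob libraries differed in opposite directions. Each sequence is the stretch just before an annotated start site, read 5′ to 3′ on the gene's strand from the RefSeq table of GRCm38.p6. Windows were given for 5 of the 8 members, and Cebpd, Cebpe and Spi1 are named only. Capitals mark matches to any of 4 motifs searched on both strands.
Klf4, chr4:55532476-55532620, minus strand: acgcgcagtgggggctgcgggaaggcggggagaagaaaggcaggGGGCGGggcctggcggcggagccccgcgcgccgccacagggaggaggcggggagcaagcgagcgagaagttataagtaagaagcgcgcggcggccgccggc
Irf8, chr8:120736213-120736357, plus strand: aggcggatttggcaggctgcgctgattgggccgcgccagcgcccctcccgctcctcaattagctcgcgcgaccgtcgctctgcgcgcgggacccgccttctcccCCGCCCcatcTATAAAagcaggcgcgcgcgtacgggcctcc
Gfi1, downstream start, chr5:107724344-107724488, minus strand: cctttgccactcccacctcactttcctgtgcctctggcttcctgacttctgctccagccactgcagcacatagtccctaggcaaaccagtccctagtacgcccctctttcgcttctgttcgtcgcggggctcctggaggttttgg
Gfi1, upstream start, chr5:107725806-107725950, minus strand: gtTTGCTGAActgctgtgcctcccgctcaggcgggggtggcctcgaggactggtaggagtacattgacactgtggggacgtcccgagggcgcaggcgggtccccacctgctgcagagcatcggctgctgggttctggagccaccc

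The Klf4 and Irf8 windows each held a GC box (GGGCGG, on the opposite strand in Irf8), and 74.5% and 71% of their bases were G or C. The Irf8 window also held a TATA box (TATAAA). A C/EBP motif (TTNNGNAA) was matched on the opposite strand in the upstream Gfi1 window, and no motif was matched in the downstream one. The PU.1 core (GAGGAA) was matched in none of the 4, and no matches overlapped. Of 32851 windows of this length, 28.3% held a GC box, 7.41% a TATA box, 22% the C/EBP motif and 14% the PU.1 core, so these matches only describe the letters.

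All 8 factors were expressed in every library. Over the 4 libraries scaled FPKM averaged 80.5 ± 12.3 (SD, n = 4) for Cebpb, 78.9 ± 15.4 for Spi1, 60.7 ± 12.3 for Cebpe and 41.0 ± 9.07 for Irf8. Cebpd followed at 31.6 ± 6.19, Cebpa at 17.5 ± 2.69, Gfi1 at 11.8 ± 3.40 and Klf4 at 7.60 ± 2.64. Cebpd and Cebpa were the neighbours in this order whose ranges did not overlap, since the lowest Cebpd value was 25.4 and the highest Cebpa value 20.6. For the other neighbours the ranges met, although in each case at least 3 libraries had them in this order. The depth behind a value was 913 to 10362 read equivalents per gene and library, so the number of libraries limits the precision more than the counting of reads does.

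**Figure D1:**
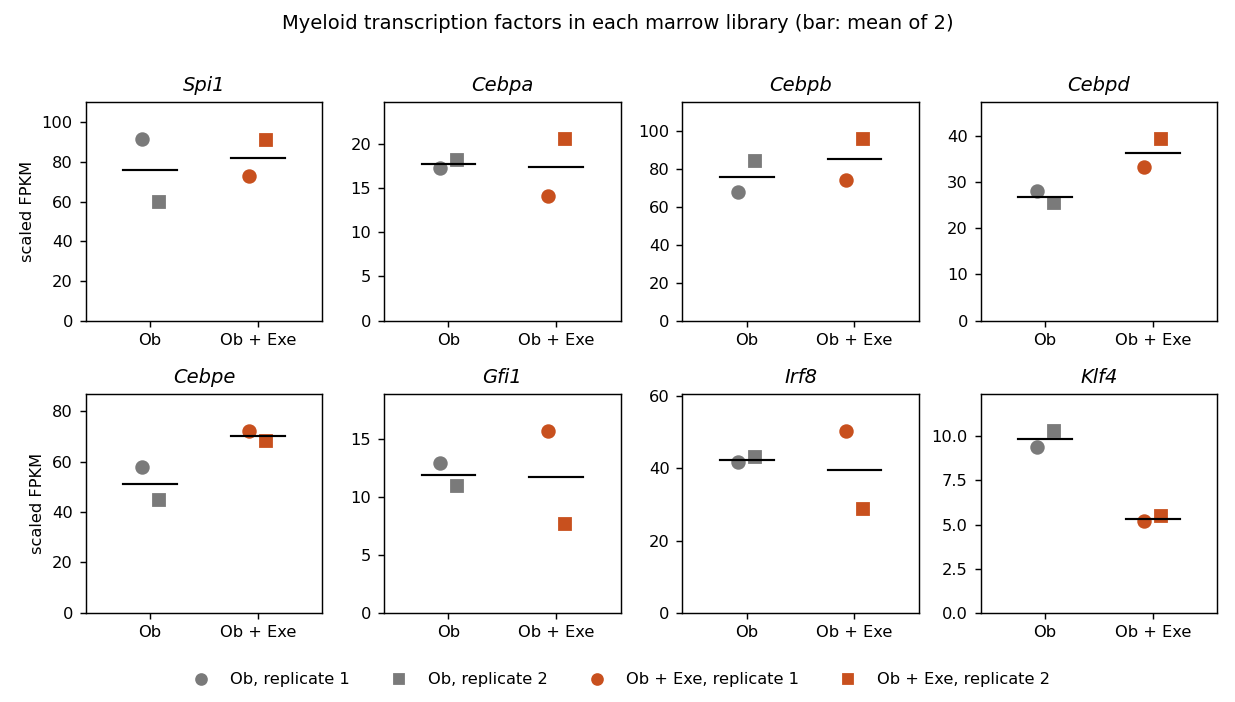
Scaled FPKM of each of the 8 factors in the 2 Ob and 2 Ob + Exe libraries, on linear axes that start at 0 and differ between genes, with each point a library and each bar the mean of a group. Klf4 was at 9.39 and 10.3 in Ob against 5.21 and 5.47 in Ob + Exe, while the 2 Ob + Exe libraries of Gfi1 and of Irf8 lie on either side of the Ob libraries.

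The comparison of the groups asks whether exercise changed the expression of these factors in obese marrow. None of the 8 met the rule used for a called gene, which asks of limma both an unadjusted p under 0.05 and a change of more than 1 on the log2 scale, against 3.71% of the 18596 genes tested. By p alone 1 of 8 (Klf4) was under 0.05, against 5.02% of all genes. The 2 groups did not overlap for 3 of 8 (Cebpd and Cebpe higher in Ob + Exe, Klf4 lower), against 32.7% of all genes, so the share of members is near that of all genes. Of the 8 factors 4 were higher and 4 lower in Ob + Exe. Their median log2 fold change was 0.04 beside −0.02 for all genes. Without scaling these medians were −0.04 and −0.10, and with quantile normalization −0.0089 and 0.012. The Benjamini-Hochberg adjusted p from limma was between 0.96 and 0.985 for every member.

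Klf4 (ENSMUSG00000003032.8, GRCm38 chromosome 4, 55527143 to 55532466, minus strand) encodes a zinc finger factor of monocytes that endothelial and stromal cells also use. It was found at a scaled FPKM of 9.39 and 10.3 in Ob against 5.21 and 5.47 in Ob + Exe. The Ob + Exe libraries were the lowest 2 of the 4, by more than the libraries of either group differed. The means were 9.86 ± 0.658 and 5.34 ± 0.182 (SD, n = 2), a change of −45.8% in Ob + Exe. On the log2 scale with a pseudocount of 0.1 the difference was −0.87 (SE 0.248), with an unadjusted limma p of 0.0137 and an adjusted p of 0.96. Its p ranked 242 of the 18596 genes. Leaving out each library in turn gave −0.95 to −0.81.

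Irf8 (ENSMUSG00000041515.10, chromosome 8, 120736358 to 120756694, plus strand), an interferon regulatory factor of monocytes and dendritic cells, was at 41.7 and 43.2 in Ob against 50.5 and 28.7 in Ob + Exe. The Ob libraries were nearly equal, and the Ob + Exe libraries were the highest and the lowest of the 4. The log2 fold change was −0.16 (SE 0.306, adjusted limma p 0.976), and it was 0.24 without Ob + Exe replicate 2.

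Gfi1 (ENSMUSG00000029275.18, chromosome 5, 107716657 to 107726036, minus strand), the zinc finger repressor of neutrophil precursors, was at 12.9 and 11.0 in Ob. In Ob + Exe it was at 15.8 and 7.67, again the highest and the lowest library. The log2 fold change was −0.11 (SE 0.382, adjusted limma p 0.985), with 0.39 without Ob + Exe replicate 2. The Ob + Exe libraries differed from each other by 1.03 on the log2 scale for Gfi1 and by 0.81 for Irf8, against 0.24 and 0.05 in size for the Ob libraries. Among genes averaging an FPKM of 1 or more, the Ob + Exe differences stood at percentiles 86.8 and 78.6. Ob + Exe had the wider spread for 5 of the 8 members, beside 64.8% of all genes tested.

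Cebpe (ENSMUSG00000052435.7, chromosome 14, 54710360 to 54712174, minus strand), the C/EBP factor of terminal granulocyte maturation, was at 57.8 and 44.7 in Ob against 72.2 and 68.2 in Ob + Exe. Both Ob + Exe libraries were above both Ob libraries, and the means, 51.2 ± 9.24 and 70.2 ± 2.89 (SD, n = 2), put Ob + Exe 37.1% higher. The log2 fold change was 0.47 (SE 0.217, unadjusted limma p 0.0779, adjusted p 0.96). Leaving out each library gave 0.27 to 0.64.

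Cebpd (ENSMUSG00000071637.5, chromosome 16, 15887286 to 15891031, plus strand), which cytokines induce in myeloid cells, was at 28.1 and 25.4 in Ob against 33.3 and 39.4 in Ob + Exe. The groups again did not overlap, and the mean was 35.9% higher in Ob + Exe. The log2 fold change was 0.44 (SE 0.210, unadjusted limma p 0.0841, adjusted p 0.96), with 0.31 to 0.56 when each library was left out.

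Cebpb (ENSMUSG00000056501.3, chromosome 2, 167688915 to 167690418, plus strand), the C/EBP factor of stress granulopoiesis, was at 67.7 and 84.0 in Ob against 74.2 and 96.0 in Ob + Exe. The groups overlapped, with a log2 fold change of 0.16 (SE 0.235, adjusted limma p 0.975). Cebpa (ENSMUSG00000034957.10, chromosome 7, 35119293 to 35121928, plus strand) was at 17.3 and 18.1 in Ob against 14.1 and 20.6 in Ob + Exe. The Ob + Exe libraries of Cebpa lay on either side of the Ob libraries, and the log2 fold change was −0.06 (SE 0.262, adjusted limma p 0.985).

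Spi1 (ENSMUSG00000002111.8, chromosome 2, 91082390 to 91115756, plus strand), which encodes PU.1, was at 91.8 and 59.9 in Ob against 72.7 and 91.1 in Ob + Exe. Here the Ob libraries held the highest and the lowest value. The log2 fold change was 0.13 (SE 0.277, adjusted limma p 0.976), and without Ob replicate 2 it was −0.18.

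**Figure D2:**
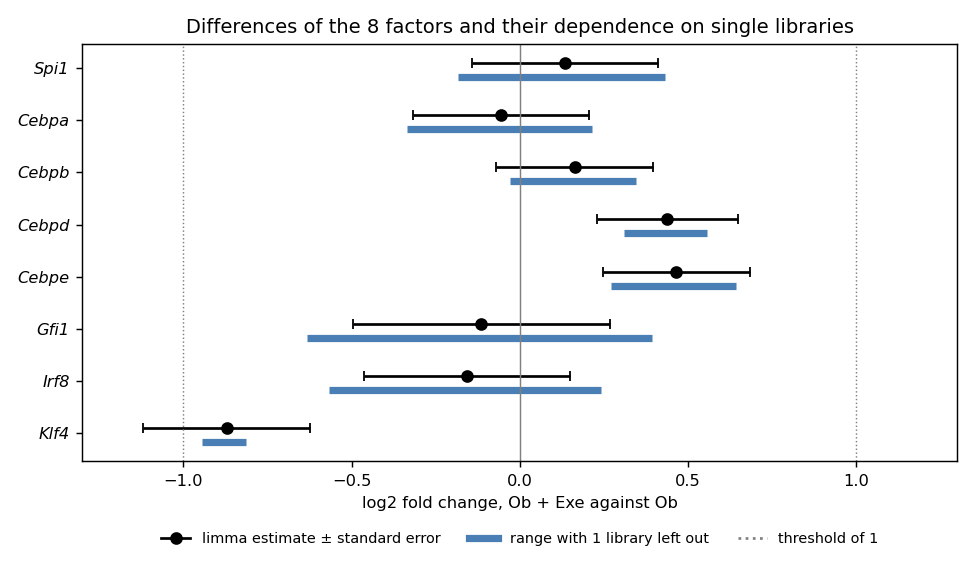
Log2 fold change of each of the 8 factors, Ob + Exe against Ob, with limma's standard error as black bars and the range with 1 library left out as blue bars. Klf4 is at −0.87, Cebpe and Cebpd are at 0.47 and 0.44, and the other 5 lie between −0.16 and 0.16.

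Ratios between factors within a library do not depend on the scaling, and 6 were compared. The smallest two-sided p that an exact permutation test can give with 2 against 2 libraries is 0.333, so none could pass a threshold of 0.05. Cebpe to Irf8, a neutrophil against a monocyte factor, was 1.38 and 1.04 in Ob against 1.43 and 2.38 in Ob + Exe. Every Ob + Exe ratio was above the Ob ratios, but Ob + Exe replicate 1 was close to Ob replicate 1. The log2 difference was 0.62 beside an SD of 0.42 between replicates (exact permutation p 0.333, adjusted over the 6 ratios 0.5). It was 0.26 without Ob + Exe replicate 2 and 0.99 without Ob + Exe replicate 1. Gfi1 to Irf8 was 0.310 and 0.254 in Ob against 0.312 and 0.267 in Ob + Exe. This ratio held nearly the same values in both groups although each factor differed between the Ob + Exe libraries (log2 difference 0.04, exact permutation p 0.667, adjusted 0.8). Leaving out each library gave −0.10 to 0.19, below 0 without Ob replicate 2 or Ob + Exe replicate 1.

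Klf4 to Irf8, both monocyte factors, was 0.225 and 0.239 in Ob against 0.103 and 0.191 in Ob + Exe. The groups did not overlap, with a log2 difference of −0.73 and an SD of 0.44 (exact permutation p 0.333, adjusted 0.5). It was −0.28 without Ob + Exe replicate 1 and −1.17 without Ob + Exe replicate 2. Cebpd to Cebpa was 1.62 and 1.40 in Ob against 2.36 and 1.91 in Ob + Exe, a log2 difference of 0.50 with an SD of 0.19. For Cebpb to Cebpa the ratios were 3.91 and 4.63 in Ob against 5.27 and 4.66 in Ob + Exe, a log2 difference of 0.22 with an SD of 0.15. The groups nearly met for Cebpb to Cebpa, at 4.63 in Ob replicate 2 and 4.66 in Ob + Exe replicate 2. Leaving out each library gave 0.34 to 0.65 for Cebpd to Cebpa and 0.097 (without Ob replicate 1) to 0.34 for Cebpb to Cebpa. Neither C/EBP ratio overlapped between groups, and each had an exact permutation p of 0.333 and an adjusted p of 0.5. Cebpa to Spi1 was 0.189 and 0.302 in Ob against 0.194 and 0.226 in Ob + Exe, and the groups overlapped (log2 difference −0.19, exact permutation p 1). Its difference was 0.15 without Ob replicate 2 and −0.53 without Ob replicate 1.

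**Figure D3:**
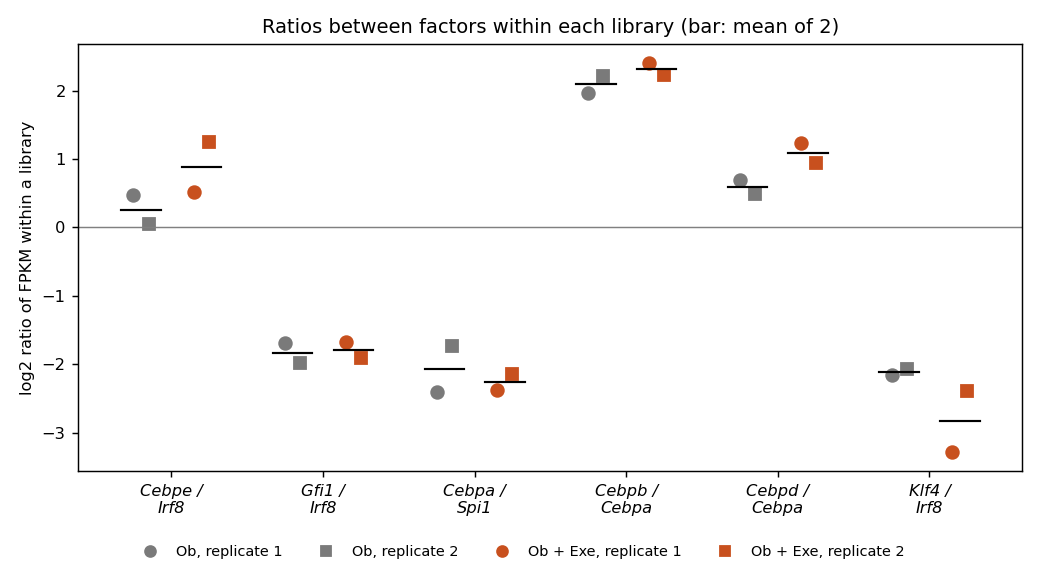
Log2 ratio of FPKM between 6 pairs of factors in each library, with each point a library and each bar the mean of a group. The Gfi1 to Irf8 points lie between −1.98 and −1.68 in all 4 libraries, while the Klf4 to Irf8 points are at −2.15 and −2.06 in Ob against −3.28 and −2.39 in Ob + Exe.

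Cebpb and Cebpe have 1 annotated transcript each, and at least 99.4% of the FPKM of Cebpa, Cebpd and Klf4 came from 1 transcript in every library. Gfi1 was read from its downstream start, as shown above, in all FPKM of 3 libraries. In Ob replicate 1 the 6-exon transcript from that start had 94.4%, and transcripts with upstream starts had the rest. Spi1 was split most. Its 5-exon transcript had 74.2% and 75.3% in Ob against 74% and 78.2% in Ob + Exe, and a 2-exon transcript had 18.3% to 21.6%. The 9-exon Irf8 transcript had 93.3% and 92.3% in Ob against 97% and 94.5% in Ob + Exe.

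For 4 members an annotated gene on the other strand overlaps the locus, and the strand setting of the counting is not given in the sources used here, so whether reads of the pair were mixed cannot be told. Spidr, over Cebpd, was at 9.20 and 6.33 in Ob against 5.81 and 11.5 in Ob + Exe, and its 2 groups overlapped where those of Cebpd did not. Tmem189, over Cebpb, reached at most 19.5, and its groups overlapped as those of Cebpb did. A430072P03Rik, over Gfi1, reached at most 1.14, and Gm45091, over Cebpa, at most 0.497. Galnt2l, annotated across Irf8 on the same strand, was listed at 0 in every library.

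The likeness of each member's pattern to 180 genes of the lists used here was measured as a distance between centred log2 values over the 4 libraries, where 0 is the same pattern. The nearest gene to Klf4 was Id3 (distance 0.0689), an inhibitor of helix-loop-helix factors, and then Vpreb3 (0.241), a B cell precursor gene. The nearest to Cebpe was Camp (0.0764), a secondary granule gene, followed by Nfil3 (0.0917). Gfi1 lay nearest to Irf8 (0.257) and then to Stab2 (0.338), while Irf8 lay nearest to the monocyte receptor gene Cx3cr1 (0.172) and then to Stab2 (0.253). Cebpd was nearest to the interleukin-6 receptor gene Il6ra (0.160) and to Csf2rb (0.168). For Cebpb the nearest were Rxra (0.146) and Clec4a1 (0.158), and for Spi1 Mcpt8 (0.143) and Etv6 (0.173). Cebpa lay nearest to Col1a2 (0.0299) and to Id2 (0.164). With 4 libraries these distances only describe the patterns.

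Among 35 other transcription factors of myeloid and early blood cells, 20 were higher and 15 lower in Ob + Exe, or 16 and 19 without scaling. None was called. The groups did not overlap for 14 of the 35 (8 higher and 6 lower), against 32.7% of all genes. The 2 with an unadjusted p under 0.05 were Id3 and Nr4a1, a nuclear receptor of patrolling monocytes. Id3 was at 11.3 and 13.2 in Ob against 6.51 and 6.97 in Ob + Exe, for a log2 fold change of −0.85 (unadjusted limma p 0.0138, adjusted 0.96). Nr4a1 was at 8.12 and 10.6 in Ob against 5.81 and 4.92 in Ob + Exe, for a log2 fold change of −0.78 (unadjusted limma p 0.0325, adjusted 0.96). As with Klf4, both Ob + Exe libraries of each gene lay below both Ob libraries, which the choice of these 2 genes by their p makes likely. Of 9 growth factor receptors 4 were higher and 5 lower, or 3 and 6 without scaling, and none was called. The granulocyte colony-stimulating factor receptor gene Csf3r was at 142 and 135 in Ob against 187 and 165 in Ob + Exe (log2 fold change 0.34, adjusted limma p 0.96).

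Genes of the cells that use these factors were set beside them. Of 14 secondary granule and late neutrophil genes, a list not limited to targets of C/EBPε, 12 were higher and 2 lower in Ob + Exe. None was called, and the median log2 fold change was 0.30. The groups did not overlap for 2 of the 14, against 32.7% of all genes. Their summed scaled FPKM was 50185 and 28742 in Ob against 36862 and 66761 in Ob + Exe, so the groups overlapped where those of Cebpe did not. Most of this sum came from S100a8 and S100a9. S100a8 gave 20906 and 12006 in Ob against 16281 and 35688 in Ob + Exe. For S100a9 the values were 17126 and 9680 in Ob against 11816 and 18196 in Ob + Exe. Ngp, a further secondary granule gene, was at 5094 and 2549.5 in Ob against 2293 and 4158 in Ob + Exe. Its log2 fold change was −0.22 (adjusted limma p 0.978), the opposite direction to Cebpe. Camp was at 2262 and 1807 in Ob against 2743 and 2762 in Ob + Exe (adjusted limma p 0.96), and was 1 of the 2 genes of the list without overlap. Of 9 primary granule genes 8 were higher and 1 lower, or 7 and 2 without scaling, and none was called. The groups did not overlap for 1 of the 9, against 32.7% of all genes. The sum of the 9 was 1963 and 1144 in Ob against 2190 and 1779 in Ob + Exe. Ob replicate 2 had the lowest sum of both granule lists. Haptoglobin (Hp) alone of the primary granule genes had an unadjusted limma p under 0.05, with a log2 fold change of 0.73 (p 0.0373, adjusted 0.96).

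Of 15 monocyte and macrophage genes 9 were higher and 6 lower, or 7 and 8 without scaling. The gene Ace, which nonclassical monocytes and endothelium express, was the only one called, against 3.71% of all genes. It was at 4.13 and 7.26 in Ob against 2.12 and 2.97 in Ob + Exe (log2 fold change −1.10, unadjusted limma p 0.0362, adjusted 0.96). The groups did not overlap for 6 of the 15, against 32.7% of all genes. Apart from Ace these were higher in Ob + Exe, the opposite direction to Klf4: Ccr2, F13a1, Ms4a6c, Ly86 and Fn1. Their log2 fold changes were 0.07 (Ly86) to 0.39 (Fn1), with unadjusted limma p of 0.737 (Ly86) to 0.128 (Fn1). Without scaling the groups of Ly86 and F13a1 overlapped. The median log2 fold change of the list was then −0.01, beside 0.07 with scaling. Ly6c2, Cx3cr1, Cst3, Cd68 and Ctss had log2 fold changes below 0, the direction of Klf4, with overlapping groups. The lysozyme gene Lyz2, which had the highest mean of the list, was at 2683 and 1747 in Ob against 2438 and 3993 in Ob + Exe, and the classical monocyte gene Ly6c2 was at 334 and 270 in Ob against 252 and 331 in Ob + Exe, so both overlapped. The 10 dendritic cell genes had 5 higher and 5 lower and none called. Their sum was 76.1 and 87.0 in Ob against 108 and 50.2 in Ob + Exe. Ob + Exe replicate 1 was thus the highest library and replicate 2 the lowest, as for Irf8. Bst2 alone gave 56.6 of the sum in Ob + Exe replicate 1 and 15.9 in replicate 2. The lowest sums of the B cell, megakaryocyte and endothelial markers below were also in Ob + Exe replicate 2.

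Markers of other marrow cells were compared in the same libraries. All 10 endothelial markers had a log2 fold change below 0 and none was called. The mean scaled FPKM was not lower in Ob + Exe for Stab2 (2.01 in Ob, 2.03 in Ob + Exe) or Egfl7 (9.39 and 9.61). For 6 of the 10 (Pecam1, Cdh5, Kdr, Tek, Emcn and Eng) the Ob + Exe values were the lowest 2 of the 4, as for Klf4. Across all genes tested, 32.7% did not overlap between groups in either direction. Cdh5, Kdr, Tek and Emcn were low, with means over the 4 libraries of 0.586 (Tek) to 0.999 (Cdh5). Pecam1, which had the highest mean, was at 12.1 and 11.5 in Ob against 8.09 and 8.06 in Ob + Exe. The sum of the 10 was 41.0 and 37.4 in Ob against 38.9 and 25.3 in Ob + Exe, which overlapped, and Egfl7 gave 13.5 of the sum in Ob + Exe replicate 1. Of 12 B cell markers 11 were lower and 2 were called, Cd79a and Igll1, against 3.71% of all genes tested. Their sum was 267 and 285 in Ob against 209 and 173 in Ob + Exe, in the same direction as Klf4 and without overlap. The 10 megakaryocyte markers were all lower and 4 were called (the platelet receptor genes Gp1ba, Gp1bb and Gp5, and Treml1), against the same 3.71%. Their sum was 505 and 375 in Ob against 403 and 151 in Ob + Exe, which overlapped. The part of these cells in the Klf4 difference was not tested.

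Of 10 eosinophil, basophil and mast cell markers 9 were higher in Ob + Exe and 1 was called, the eosinophil granule gene Prg2, against 3.71% of all genes. Their sums were 248 and 177 in Ob against 228 and 333 in Ob + Exe, which overlapped. Their part in the Cebpe and Cebpd values was not tested. At the scaling used, the other lists gave nearly even counts. Of 11 stromal, fat and bone cell genes tested 6 were higher and 5 lower with 1 called lower (Col1a1), of 10 T and natural killer cell markers 4 were higher and 6 lower, and of 10 erythroid transcription factors 5 were higher and 5 lower. Of 9 erythroid markers 4 were higher and 5 lower, but 2 and 7 both without scaling and with quantile normalization. No marker of these lists was at 0 in all 4 libraries.

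**Figure D4:**
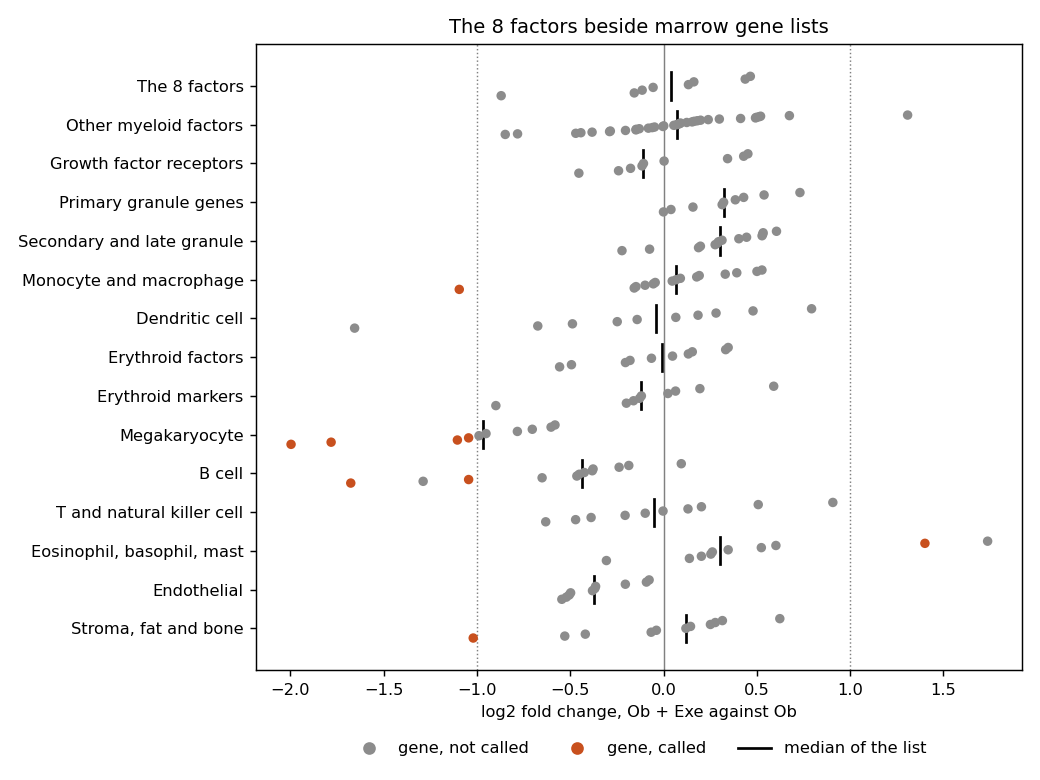
Log2 fold change, Ob + Exe against Ob, of every tested gene of the 8 factors and of each gene list, with each point a gene (orange where called), a black mark at the median and dotted lines at the thresholds of −1 and 1. The megakaryocyte and endothelial markers lie below 0 throughout with medians of −0.97 and −0.37, whereas the 8 factors lie on both sides with a median of 0.04.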

How the data were processed

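RNA-seq of tibial marrow was given for 2 Ob and 2 Ob + Exe libraries. According to the study's methods, the authors checked reads with FastQC, trimmed them with fastp, removed rRNA, aligned to GRCm38 with HISAT2, used SAMtools and quantified GENCODE transcripts with StringTie. The authors deposited 1 table per library with read coverage (a signal not normalized for depth) and FPKM for 142604 transcripts. The authors tested with DESeq2, which needs counts, so limma was used here.

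Transcript FPKM were summed per gene. Genes averaging an FPKM of 0.1 or more (18596) were scaled by median-of-ratios factors of 0.949 to 1.03, set on genes above 0 in all libraries averaging 1 or more. Log2(value + 0.1) was fitted with limma 3.58.1 in R 4.3.3 (2 residual degrees of freedom, intensity trend) and adjusted by Benjamini-Hochberg over all genes. Fold changes on this scale understate the change of low genes. Read equivalents are coverage times length divided by 150 bases. Each library had 8702 to 9952 megabases aligned. The limma script was tested on simulated data. Ratios were compared with a two-sided exact permutation test. By rule, genes named are the 8 members, genes overlapping them and the 2 list genes nearest to each. Of each list, those called or up to 3 with the highest mean FPKM were also named. Further genes were named after their values were seen: Nr4a1, Ccr2, F13a1, Ms4a6c, Ly86, Fn1, Cd68, Ctss, Cdh5, Kdr, Tek and Emcn. The members and lists were chosen with earlier results of these data known, and the lists were written from general knowledge. Ahsp was not used here, and Plin1 did not pass the filter. The deviations of same-numbered libraries from their group means correlated at −0.106 over all tested genes and −0.235 over those averaging 1 or more, and nothing in the labels pairs the numbers. Alternatives were other scalings, filters, pseudocounts, voom, the top transcript only, blocks and leaving out each library. Other steps ran in Python 3.11.15 with pandas 2.3.3.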

Additional observations from a re-analysis of the deposited data

How the results depend on the processing

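No member was called in any of the 15 alternatives, and the lowest adjusted limma p of a member in any of them was 0.370. Klf4, Cebpd and Cebpe kept their direction in 15 of 15, and over all members 113 of 120 values did. Many of these values could not have reversed. The blocks, the filters and the fit without the intensity trend left every member's fold change as it was. At a fixed scaling, leaving out 1 library also cannot reverse a gene whose groups do not overlap, as for Klf4, Cebpd and Cebpe. The reversals came from leaving out a library: log2 fold changes ran from −0.34 to 0.21 for Cebpa (higher without Ob + Exe replicate 1), −0.031 to 0.35 for Cebpb (lower without Ob + Exe replicate 2 or Ob replicate 1), −0.63 to 0.39 for Gfi1 and −0.57 to 0.24 for Irf8 (both higher without Ob + Exe replicate 2), and −0.18 to 0.43 for Spi1 (lower without Ob replicate 2 or Ob + Exe replicate 2). Genes called numbered 690 (182 higher, 508 lower), 450 with voom, 267 with a minimum mean FPKM of 1 and 224 with a pseudocount of 1, 1061 without the intensity trend, and 746 to 1924 with 1 library left out, where the lone library of a group is assumed to vary like the others. The cause was not tested. The share of called genes that were higher was 26.4%, and it ran from 12.7% without Ob replicate 2 to 37.2% with quantile normalization, with 20.6% without scaling and 19.2% without Ob replicate 1. Of the 6 ratios, Gfi1 to Irf8 and Cebpa to Spi1 changed direction when a library was left out. The replicate block gave 776 called genes and let 28 genes pass an adjusted limma p of 0.05, against none without it (933 had an unadjusted p under 0.05, and voom gave no adjusted call). No member was among the 28, and the block changed no member's call. The crossed pairing, added after seeing the data, gave 782 called genes and 6 by adjusted p.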
